A study of Mus musculus with 14 samples.

Results

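The cell cycle entry machinery was followed here, as 8 genes, through the formation of the first haematopoietic cells in the mouse embryonic aorta. They were chosen by name: the D-type cyclins *Ccnd1*, *Ccnd2* and *Ccnd3*, their kinases *Cdk4* and *Cdk6*, the inhibitors *Cdkn1a* (p21) and *Cdkn1b* (p27), and the retinoblastoma gene *Rb1*. All 8 were present in each table, among 19322 genes in the E10 cells, 19424 in the E11 cells and 19425 in the picked clusters. D-type cyclins are made when growth signals reach a cell, and they bind and activate Cdk4 or Cdk6. The active kinases phosphorylate Rb, which releases the E2F transcription factors and lets the cell copy its DNA. p21 and p27 bind cyclin-Cdk complexes and hold back Cdk2, while they also help to assemble cyclin D-Cdk4 complexes. Mouse embryos without any D-type cyclin, or without both Cdk4 and Cdk6, fail in blood formation.

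Single cells were sorted from embryos at E10 (28 to 32 somite pairs) and at E11 (more than 40 somite pairs) and sequenced with CEL-Seq, a method that counts the 3′ ends of transcripts with unique molecular identifiers (UMIs). Non-hemogenic endothelial cells (non-HE, Cdh5+ Gfi1- Gfi1b- c-kit-) and hemogenic endothelial cells (HE, Cdh5+ Gfi1+ Gfi1b- c-kit-) came from ICR embryos. So did cells in endothelial-to-haematopoietic transition (EHT, Cdh5+ Gfi1+ Gfi1b- c-kit+). The fathers of these embryos carried the Gfi1 tomato and Gfi1b GFP reporter alleles, each on 1 chromosome, and the mothers were wild type. Which of these alleles each embryo had inherited is not given in the sources used here. Intra-aortic haematopoietic cluster (IAHC) cells (c-kit+CD31+, and at E11 also a c-kit+ sort), E11 pre-HSCs of type I and type II (sorted for Cdh5 and c-kit, with CD45 recorded) and c-kit+ yolk sac (YS) HSPCs came from C57BL/6 wild-type embryos, as did whole IAHCs (wIAHCs) that had been picked from the ventral or dorsal side of the aorta. Where inherited, a reporter gene replaces 1 copy of *Gfi1* or of *Gfi1b*. EHT cells were sorted as Gfi1+, so the EHT and IAHC cells differed in strain and genotype as well as in sort, and these cannot be told apart. Each of the 13 sorted populations came from 1 sample, with both pre-HSC types in the same one, and AGMs had been pooled before sorting. There were 43 non-HE, 98 HE, 191 EHT, 73 IAHC and 141 YS cells at E10. At E11 there were 30 non-HE, 46 HE, 46 EHT, 62 type I, 55 type II, 201 c-kit+CD31+ IAHC, 89 c-kit+ IAHC and 46 YS cells. Because there was 1 sample per population, no test was possible between them, and the intervals given are 95% exact Poisson or binomial intervals that cover counting error only.

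The coding sequences below show the contacts that tie these proteins together. In the cyclins, the capitals mark the codons of the motif near the amino end through which D-type cyclins bind Rb. In the kinases, they mark the helix that lies against the cyclin. In the inhibitors, they mark the motif that docks on the cyclin. All are printed 5′ to 3′ on the coding strand of mm10 (GRCm38) and each lies in 1 coding exon.
Ccnd1 (chr7:144939658-144939687, minus strand, exon 1): caccagCTCCTGTGCTGCGAAgtggagacc
Ccnd2 (chr6:127150744-127150773, minus strand, exon 1): atggagCTGCTGTGCTGCGAGgtggacccg
Ccnd3 (chr17:47593655-47593684, plus strand, exon 3): atggagCTGCTGTGTTGCGAGggcacccgg
Cdk4 (chr10:127064380-127064409, plus strand, exon 2): cttCCCGTCAGCACAGTTCGTGAGgtggcc
Cdk6 (chr5:3344526-3344555, plus strand, exon 2): atgCCGCTCTCCACCATCCGCGAGgtggcg
Cdkn1a (chr17:29098453-29098482, plus strand, exon 2): gtgtgcCGTTGTCTCTTCGGTcccgtggac
Cdkn1b (chr6:134921001-134921030, plus strand, exon 2): gcctgcAGAAATCTCTTCGGCccggtcaat
The Rb-binding codons of *Ccnd2* and *Ccnd3* shared 14 of 15 bases, those of *Ccnd1* and *Ccnd2* shared 13, and those of *Ccnd1* and *Ccnd3* shared 12. The helix codons of *Cdk4* and *Cdk6* shared 13 of 21 bases, and the docking codons of *Cdkn1a* and *Cdkn1b* shared 10 of 15. CEL-Seq reads come from the 3′ ends of transcripts, not from these stretches. In the last 500 bases of their transcripts, the annotation gave no shared run of 35 bases with any other gene for *Ccnd1*, *Ccnd2*, *Cdkn1a*, *Cdkn1b* and *Rb1*. *Ccnd3* shared 256 of 2366 such runs with a pseudogene (*Ccnd3-ps*), *Cdk4* shared 54 of 1286 and *Cdk6* shared 82 of 1540 with other genes. The 3′ ends of *Ccnd1*, *Ccnd2*, *Ccnd3*, *Cdk4* and *Rb1* also overlapped a gene on the other strand (*LTO1*, *Gm43126*, *Bysl*, *Tspan31* and *Rcbtb2*), that of *Rb1* also overlapped *Gm17233* on its own strand, and whether reads were counted by strand is not given in the sources used here.

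Every E10 cell held 3000 transcripts and every E11 cell 5000, since the authors had down-sampled them, so levels are compared within a stage. Between stages, E11 cells were first thinned to 3000. No cell had the same values as another. The columns matched to the E10 non-HE sample are named as early E11 endothelium although they stand in the table of E10 cells, which leaves their stage unsure wherever they are used. Of the 7 endothelial markers all had transcripts in every population except *Kdr* in E10 YS HSPCs, and their summed level at E10 was 22.4 per cell in non-HE, 14.9 in HE, 6.56 in EHT and 4.466 in IAHC cells. At E11 the sums were 25.7 in non-HE, 30.4 in HE, 12.6 in EHT and 4.66 to 8.73 in pre-HSC and IAHC cells. The sum of the haematopoietic markers ran the other way, from 0.256 in E10 non-HE cells to 8.18 in E10 IAHC cells. The macrophage sum was 3.89 per cell in E11 EHT cells against 0 to 0.731 elsewhere, and 2 E11 EHT cells held 4 or more of the 7 macrophage markers. IAHC cells were used as found in the deposited tables. The 73 E10 IAHC cells equal in number those the study describes as purified in silico, so the authors may have selected cells already. A purification rule after the study's, on *Gpr56* and markers of other cells, removed 19 E10 and 103 E11 IAHC cells and moved no member ratio by more than its interval. Mesenchymal markers summed to 0.900 in c-kit+CD31+ and 1.36 in c-kit+ E11 IAHC cells. Erythroid markers summed to 0.0367 to 5.43 and mesenchymal markers to 0.0411 to 1.46 per cell.

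*Ccnd2* was the D-type cyclin with the most transcripts in 12 of the 13 populations, and its highest level at each stage was in c-kit+CD31+ IAHC cells. At E10 it averaged 0.581 transcripts per cell in non-HE, 0.724 in HE, 1.09 in EHT, 1.27 in IAHC and 0.816 in YS cells. At E11 it averaged 0.467 in non-HE, 0.870 in HE, 0.870 in EHT, 1.79 in type I, 1.236 in type II, 2.33 in c-kit+CD31+ IAHC, 1.92 in c-kit+ IAHC and 0.826 in YS cells. The lowest and highest values at E11 were those of non-HE (0.255 to 0.783) and c-kit+CD31+ IAHC cells (2.13 to 2.55), whose intervals lay far apart. Neighbours in the order overlapped within their intervals, for *Ccnd2* and for the other 7 genes. A *Ccnd2* transcript was found in 30% of E11 non-HE cells and in 80.6% of type I pre-HSCs.

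**Figure D1:**
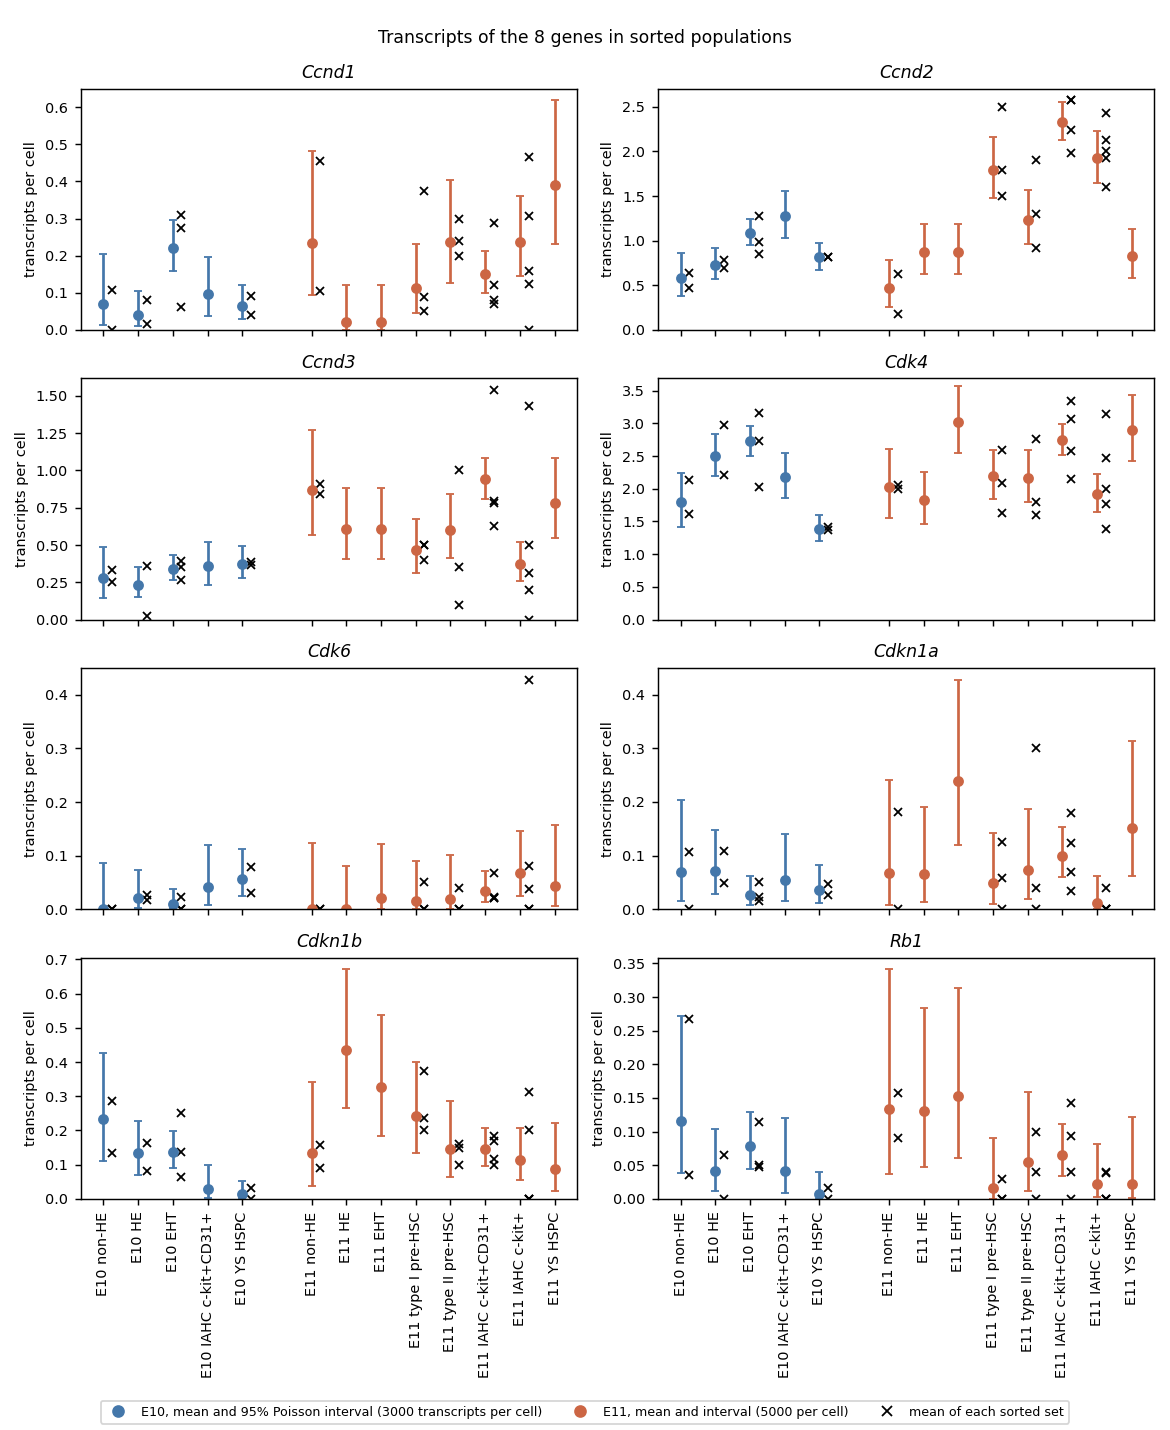
Mean transcripts per cell of each of the 8 genes in the 13 sorted populations, with 95% exact Poisson intervals as bars and the means of the sorted sets as small points. *Ccnd2* runs from 0.467 to 2.33 and *Cdk4* from 1.4 to 3.02 per cell, while *Cdk6* stays at or under 0.0674.

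*Ccnd3*, the D-type cyclin best known from lymphoid and red cells, followed another order. At E10 its levels lay between 0.235 in HE and 0.376 in YS cells, with 0.279 in non-HE, 0.340 in EHT and 0.356 in IAHC cells. At E11 they were 0.867 in non-HE, 0.609 in HE, 0.609 in EHT, 0.468 in type I, 0.6 in type II, 0.940 in c-kit+CD31+ IAHC, 0.371 in c-kit+ IAHC and 0.783 in YS cells. The sorted sets within a population were far from even for this gene. The 2 sets of E10 HE cells held 0.0270 and 0.361 per cell, and the 5 sets of E11 c-kit+ IAHC cells ran from 0 to 1.43.

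*Ccnd1*, the D-type cyclin of many epithelial and mesenchymal cells, was low in all populations. At E10 it averaged 0.0698 in non-HE, 0.0408 in HE, 0.220 in EHT, 0.0959 in IAHC and 0.0638 in YS cells. At E11 it averaged 0.233 in non-HE, 0.0217 in HE, 0.0217 in EHT, 0.113 in type I, 0.236 in type II, 0.149 in c-kit+CD31+ IAHC, 0.236 in c-kit+ IAHC and 0.391 in YS cells. The E10 EHT cells (42 transcripts) and the E11 YS cells (18 transcripts) were highest at their stages. HE and EHT cells at E11 held 1 transcript each.

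The make-up of the D-type cyclin pool was least in favour of *Ccnd2* in E11 non-HE and YS cells. *Ccnd2* made up 62.5% of D-type cyclin transcripts in non-HE, 72.4% in HE, 66.0% in EHT, 73.8% in IAHC and 65.0% in YS cells at E10. At E11 it made up 29.8% (17.3 to 44.9) in non-HE, 58.0% in both HE and EHT, 75.5% in type I, 59.6% in type II, 68.2% in c-kit+CD31+ IAHC, 76.0% in c-kit+ IAHC and 41.3% (31.1 to 52.1) in YS cells. E11 non-HE cells were the exception to its lead, with 55.3% *Ccnd3*. In E11 YS cells *Ccnd3* (39.1%) was close to *Ccnd2*, and *Ccnd1* had its highest share, with 18 of 92 transcripts. HE and EHT cells at E11 had the same sums of all D-type cyclins, although their cells differed, with *Ccnd2* in 22 HE and 26 EHT cells.

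**Figure D2:**
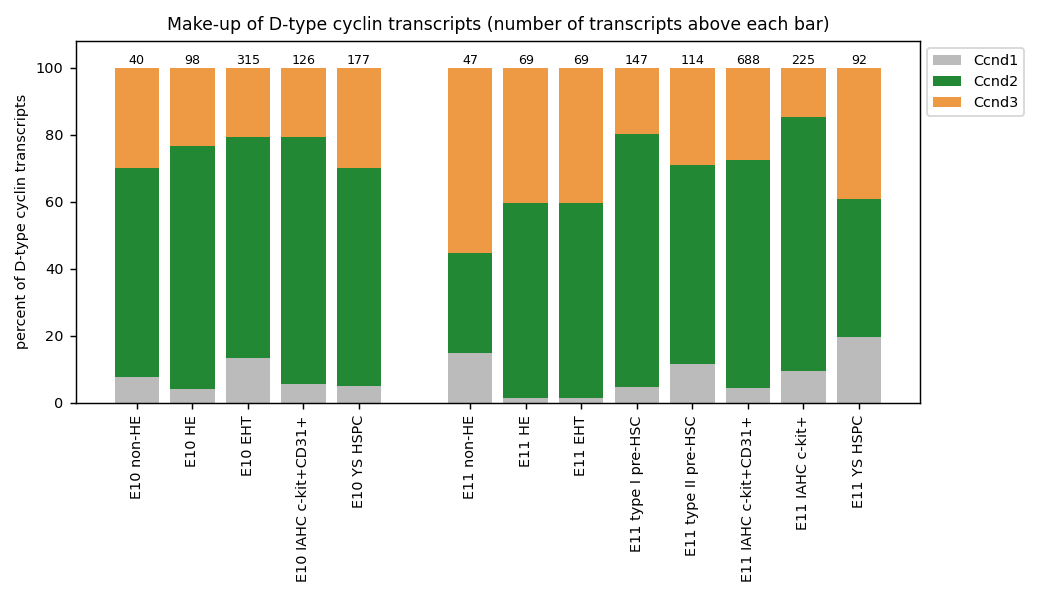
Share of *Ccnd1*, *Ccnd2* and *Ccnd3* in all D-type cyclin transcripts of each population, in percent, with the number of transcripts above each bar. *Ccnd2* is the largest part in all populations but E11 non-HE, where *Ccnd3* makes up 55.3%.

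The pool itself held 0.930 transcripts per cell in E10 non-HE, 1.00 in HE, 1.65 in EHT, 1.73 in IAHC and 1.26 in YS cells. At E11 it held 1.567 in non-HE, 1.5 in HE and in EHT, 2.37 in type I, 2.07 in type II, 3.42 in c-kit+CD31+ IAHC, 2.53 in c-kit+ IAHC and 2.00 in YS cells. At least 1 D-type cyclin transcript was found in 91.5% of E11 c-kit+CD31+ IAHC cells, and in 81.1% of them after thinning to the E10 depth, against 60.2 to 75.3% in the E10 populations. More than 1 of these cyclins was found in 49.2% of the E11 c-kit+CD31+ IAHC cells, and in 30.3% of them at the E10 depth. At E10 the share was 13.95% in non-HE, 8.16% in HE, 31.4% in EHT, 24.7% in IAHC and 15.6% in YS cells.

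*Cdk4* was the most abundant of the 8 genes and *Cdk6* was close to the limit of detection. *Cdk4* averaged 1.79 in non-HE, 2.50 in HE, 2.72 in EHT, 2.18 in IAHC and 1.4 in YS cells at E10. At E11 it averaged 2.03 in non-HE, 1.83 in HE, 3.02 in EHT, 2.19 in type I, 2.16 in type II, 2.75 in c-kit+CD31+ IAHC, 1.92 in c-kit+ IAHC and 2.89 in YS cells. EHT cells had the highest values at both stages, with intervals that overlapped those of HE at E10 and of YS cells at E11. Without the second set of E10 HE cells the E10 EHT to HE ratio turned from 0.12 to -0.12. *Cdk4* was found in 75.2 to 95.7% of the cells of a population. *Cdk6*, a kinase with known roles in adult stem cell activation, gave 33 transcripts in all 1121 cells.

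E10 YS cells held 8 of these transcripts, and *Cdk6* reached at most 3.92% of the *Cdk4* and *Cdk6* transcripts, in those cells. No *Cdk6* transcript was detected in 43 E10 non-HE, 30 E11 non-HE and 46 E11 HE cells. With 3 counts over the cells taken as the limit, this allows shares of cells with a detected transcript of up to 6.98%, 10% and 6.52%. The exact binomial interval is wider and reached 8.22% in E10 non-HE cells.

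The inhibitors p21 and p27 were low in all populations, and *Cdkn1b* was highest in non-HE at E10 and in HE at E11. *Cdkn1b* averaged 0.233 in non-HE, 0.133 in HE, 0.136 in EHT, 0.0274 in IAHC and 0.0142 in YS cells at E10. At E11 it averaged 0.133 in non-HE, 0.435 in HE, 0.326 in EHT, 0.242 in type I, 0.145 in type II, 0.144 in c-kit+CD31+ IAHC, 0.112 in c-kit+ IAHC and 0.0870 in YS cells. HE was the highest at E11, with *Cdkn1b* in 37.0% of its cells, and it stood above both IAHC sorts. *Cdkn1a*, a target of p53, ranged from 0.0112 in E11 c-kit+ IAHC cells to 0.239 in E11 EHT cells, with 75 transcripts in all. The 11 transcripts of the E11 EHT cells came from 4 cells, 9 of them from the 2 cells with macrophage markers, and all 7 of the E11 YS cells came from 1 cell.

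Set against the D-type cyclins, p21 and p27 took a smaller share in clusters than in HE. The inhibitor *Cdkn1c* (p57), given further below, is not part of this share. It had 2.48 transcripts per cell in E11 c-kit+CD31+ IAHC cells, far more than p21 and p27, so the share does not describe all inhibitors. p21 and p27 together made up 24.5% (13.8 to 38.3) of the inhibitor and D-type cyclin transcripts in E10 non-HE, 16.9% in HE, 8.96% in EHT, 4.55% in IAHC and 3.80% (1.54 to 7.68) in YS cells. At E11 the share was 11.3% in non-HE, 25% (16.6 to 35.1) in HE, 27.4% (18.7 to 37.5) in EHT, 10.9% in type I, 9.52% in type II, 6.65% (4.96 to 8.69) in c-kit+CD31+ IAHC, 4.66% in c-kit+ IAHC and 10.7% in YS cells. The HE and EHT intervals at E11 lay above those of both IAHC sorts, which differ from them in strain and reporter alleles too. Without the 2 EHT cells with macrophage markers the EHT share was 20% (12.1 to 30.1). Levels of different genes are set side by side here because 1 tag is counted per transcript, but capture and mapping may differ between genes.

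*Rb1*, the substrate of the cyclin D kinases, was low and highest in non-HE at E10 and in EHT at E11. At E10 it averaged 0.116 in non-HE, 0.0408 in HE, 0.0785 in EHT, 0.0411 in IAHC and 0.00709 in YS cells. At E11 it averaged 0.133 in non-HE, 0.130 in HE, 0.152 in EHT and 0.0161 to 0.0647 in the remaining 5 populations. Its 65 transcripts over all populations leave every order within either stage open to counting error between neighbours.

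Differences between populations next to each other in the transition were expressed as log2 ratios of the mean transcripts per cell plus 0.1, and a member was counted where it reached 0.2 per cell in either population and differed by 2-fold or more. From non-HE to HE at E10, none of the 4 members at that level was counted, against 7.53% of all genes at that level, with the non-HE stage unsure as above. *Cdk4* was higher in HE by 0.46 (0.11 to 0.87), and the interval of *Cdkn1b* (-0.52, -2.11 to 0.54) held 0. From HE to EHT at E10, 1 of 4 was counted against a background of 10%. This was *Ccnd1*, with 42 transcripts in 191 EHT cells against 4 in 98 HE cells and a log2 ratio of 1.18 (0.97 to 4.37; the interval is that of the plain ratio). The 3 sets of EHT cells held 0.0625, 0.275 and 0.310 *Ccnd1* transcripts per cell and the 2 sets of HE cells 0.0164 and 0.0811, so that 1 EHT set lay within the HE range. *Ccnd2* differed in the same direction by 0.53 (0.19 to 1.00), with 0.850 to 1.28 in the EHT sets and 0.689 to 0.784 in the HE sets. Without the second HE set, which held 22 of the 23 *Ccnd3* transcripts of E10 HE cells, the members counted were others. *Ccnd1* was then under 2-fold from HE to EHT (0.82). *Ccnd3* was past 2-fold in that step and from non-HE to HE, lower in HE each time.

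From EHT to IAHC at E10, none of 4 was counted against 7.95%, with *Ccnd1* at -0.71 (-2.60 to -0.03) and *Cdk4* at -0.31 (-0.59 to -0.06). *Cdkn1b*, under the minimum level in both, had 2 transcripts in 73 IAHC cells and 26 in 191 EHT cells (-0.89). From IAHC to YS HSPC at E10, none of 3 was counted against 10.2%. *Ccnd2* was lower in YS cells by a log2 ratio of -0.59 (-1.05 to -0.23) and *Cdk4* by -0.61 (-0.96 to -0.34), and both sets of YS cells were alike (*Ccnd2* 0.815 and 0.816).

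At E11, 2 of 5 members were counted between non-HE and HE, against 10.8% of all genes. *Cdkn1b* was higher in HE by 1.2 (0.13 to 3.71), with 20 transcripts in 46 cells against 4 in 30, and *Ccnd1* was lower by -1.45 (-8.92 to -0.46), with 1 against 7. Of the 7 transcripts 5 came from the first non-HE set of 11 cells, and without that set the ratio was -0.75. From HE to EHT, 1 of 5 was counted against 16.2%. That was *Cdkn1a* at 1.04 (-0.05 to 4.36), which had the value -0.18 without the 2 EHT cells with 4 or more macrophage markers. *Cdk4* was higher in EHT by 0.70 (0.33 to 1.14) and its interval was clear of 0. *Ccnd2* had the value 0.00 (-0.67 to 0.67), so that a difference of 2-fold lay outside its interval.

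From EHT to type I pre-HSCs, 1 of 5 was counted against 13.7%, again *Cdkn1a* (-1.19; 0.03 without the same 2 cells). *Ccnd2* was higher in type I by 0.96 (0.51 to 1.6) and *Cdk4* was lower by -0.44 (-0.81 to -0.11). From type I to type II, none of 5 was counted against 3.14%. *Ccnd2* was lower in type II by -0.50 (-0.99 to -0.09), with 2.5, 1.79 and 1.5 per cell in the 3 sets of type I and 1.9, 0.92 and 1.3 in those of type II. Both types came from the same sort and type II was the lower in each set, although the sets of the types overlapped.

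From EHT to c-kit+CD31+ IAHC cells, 1 of 5 was counted against 15.8%. *Ccnd2* was higher in IAHC cells by 1.33 (0.96 to 1.93), and all 4 IAHC sets (1.98 to 2.58) lay above the EHT value of 0.870. *Ccnd3* was higher by 0.55 (0.05 to 1.26) and *Cdkn1b* lower by -0.80 (-2.12 to -0.17). Strain and reporter alleles differ in this comparison and in that with type I, as noted above. Between the c-kit+ and the c-kit+CD31+ IAHC sorts, 1 of 4 was counted against 2.67%, with *Ccnd3* lower in the c-kit+ sort by -1.14 (-1.92 to -0.80). The c-kit+CD31+ sets held 0.628 to 1.54 *Ccnd3* transcripts per cell, and 1 of the 5 c-kit+ sets, of 7 cells, lay inside that range at 1.43 while the other 4 held 0 to 0.5. From c-kit+CD31+ IAHC to YS HSPC at E11, 1 of 4 was counted against 9.53%. *Ccnd2* was lower in YS cells by -1.39 (-2.02 to -1.02), while *Ccnd1* was higher by 0.98 (0.46 to 2.28). *Ccnd2* was thus lower in YS than in c-kit+CD31+ IAHC cells of the same strain at both stages. The erythroid marker sum was 2.10 in YS against 1.51 in IAHC cells at E10 and 5.43 against 0.224 at E11, and the endothelial sum 0.482 against 4.466 and 1.65 against 7.24. Their part in the result was not tested.

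Between stages at equal depth, 3 differences were counted, of *Cdk4* in HE and of *Ccnd1* in EHT and YS cells. The median of all genes at the minimum level was -0.14 in non-HE, -0.20 in HE, -0.29 in EHT, -0.31 in IAHC and -0.40 in YS cells on the log2 scale. No member of 4 was counted in non-HE against 9.97%, where the stage of the E10 cells is unsure. In HE, 1 of 4 was counted against 9.32%, with *Cdk4* lower at E11 by -1.05 (-1.57 to -0.68). In EHT, 1 of 4 was counted against 6.81%. That was *Ccnd1*, with 0 transcripts in 46 thinned E11 cells and 42 in 191 E10 cells, at least 3.37-fold lower when 3 transcripts over the E11 cells are taken as the floor. Without the third E10 EHT set this bound is 2.21-fold, and the first set (0.0625 per cell) lies under the floor. *Ccnd2* was lower in E11 EHT cells by -0.84 (-1.59 to -0.35), but had the same level in E10 and E11 c-kit+CD31+ IAHC cells (1.27 and 1.289; log2 ratio 0.02, -0.33 to 0.37), where none of 3 was counted against 3.40%. In YS cells, 1 of 4 was counted against 10.7%, with *Ccnd1* higher at E11 by 1.3 (0.94 to 3.64). Of the 11 differences of members past 2-fold within and between stages, 2 stayed past it under every alternative, those of *Ccnd2* between c-kit+CD31+ IAHC cells and EHT or YS cells at E11. The other 9 were under 2-fold with a pseudocount of 0.5. E11 EHT and E11 YS cells each came from 1 sorted set, so leaving out a set could not vary their side of the *Ccnd2* differences.

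The other genes of the pathway were read from 8 lists, and the E2F targets were most often 2-fold apart where E11 HE cells were compared. The mitosis genes were most often 2-fold apart in E11 against E10 HE and in E11 HE against non-HE. Among 16 E2F target genes, which include the replication genes *Pcna* and *Rrm2*, 4 were 2-fold or more higher and 0 lower in E10 HE against non-HE. At E11 the direction was opposite, with 0 of 15 higher and 7 lower in HE, and then 12 of 14 higher and 0 lower in EHT against HE. In that step the E2F median log2 ratio was 1.27 against -0.07 over all genes, while *Ccnd2* and *Ccnd3* had the value 0.00. Of 16 E2F targets, 14 were lower in E11 than in E10 HE cells (median -1.525, against -0.20 over all genes), and so were 9 of 11 mitosis genes, where 9.32% of all genes were 2-fold apart. *Rrm2* went from 0.969 to 0.0652 per cell and *Pcna*, the clamp of the replication fork, from 2.29 to 0.522 at equal depth. Of the mitosis genes, 5 of 11 were higher in E10 HE than in non-HE and 7 of 11 were lower in E11 HE than in non-HE. In E11 EHT against HE, 5 of 12 were higher. Over all genes 7.53%, 10.8% and 16.2% were 2-fold apart in these comparisons, in the same order. In the remaining comparisons at most 1 E2F target and 3 mitosis genes were 2-fold apart, with 1 exception. In E11 against E10 EHT, 5 of 16 E2F targets were lower, where 6.81% of all genes were 2-fold apart.

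Of the 8 upstream inputs to the D-type cyclins and *Cdkn1b*, 2 to 7 reached the minimum level in a comparison within a stage and 1 to 4 of these were 2-fold apart. Over all genes the shares were 2.67 to 16.2%, as given above. *Mycn*, a Myc family activator of cell growth, had 1.518 transcripts per cell in E10 EHT against 0.316 in HE (log2 ratio 1.96) and 2.39 against 0.261 at E11 (2.79). It was lower again in IAHC cells, at 0.151 at E10 (-2.69) and 0.692 at E11 (-1.65). *Klf4*, a factor that can activate *Cdkn1a*, was lower in EHT than in HE by -1.27 at E10 and -1.95 at E11. The antiproliferative p53 target *Btg2* was lower in EHT than in HE by -1.01 and -1.96. *Trp53* itself had 0.205 transcripts per cell in E10 IAHC against 1.366 in EHT cells (-2.26) and 0.371 in type I against 1.59 in E11 EHT cells (-1.84).

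*Cdkn1c* (p57), the other Cip/Kip inhibitor, had more transcripts than p21 and p27 in every population but the E10 YS and E11 YS cells, with 1.28 in E10 non-HE and 2.6 in E11 non-HE. It averaged 1.425 per cell in E10 and 2.48 in E11 c-kit+CD31+ IAHC cells, and 0.0355 and 0.130 in the YS cells of the same stages (log2 ratios -3.49 and -3.48). From HE to EHT its log2 ratio was -0.34 at E10 and 0.53 at E11. From EHT to c-kit+CD31+ IAHC cells, which differ in strain and reporter alleles too, it was -0.35 and 0.24. *Cdkn1c* is also 1 of the 11 genes by which the purification rule leaves out IAHC cells (more than 2 transcripts), and that rule was not applied to the values given here. None of the other 5 Cdk inhibitors on the list reached 0.2 per cell in any population. Of the E-type and A-type cyclins and Cdk2, 2 of 3 at the minimum level were 2-fold apart in E10 HE against non-HE (7.53% of all genes). So were 2 of 3 in E11 EHT against HE (16.2%) and in E11 against E10 HE (9.32%), and at most 1 elsewhere. Of the Rb family and E2f genes at most 3 were 2-fold apart. In E11 c-kit+CD31+ IAHC against EHT cells 3 of 6 were lower (15.8% of all genes). In type I pre-HSCs against EHT cells 1 was higher and 2 were lower of 7 (13.7%). *E2f8* had 12 transcripts in E11 EHT against 0 in HE cells. Of the regulators of p27 and Cdk activity at most 2 were 2-fold apart, 2 of 7 lower in E11 HE against non-HE (10.8%).

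Whether the members followed the cycling content of single cells was examined within each population of 40 or more cells, by dividing it at the median of the summed E2F target and mitosis transcripts. These sums held none of the 8 members and are a range of a score, not a cell cycle phase. E2F target transcripts ran from 4.50 per cell in E11 HE to 20.1 in E11 YS cells, and at E10 from 5.84 in non-HE to 15.7 in YS cells. *Ccnd2* was lower in the cells at or above the median in 9 of 12 populations, and its interval was below 0 in 3 of them. In E10 HE cells it averaged 0.5 in the upper cells and 0.958 in the lower (log2 ratio -0.82, -1.70 to -0.21). In type II pre-HSCs it averaged 0.897 and 1.615 (-0.78, -1.61 to -0.11), and in E11 c-kit+CD31+ IAHC cells 2.06 and 2.62 (-0.34, -0.62 to -0.08).

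*Cdk4* ran the other way, higher in the upper cells in 11 of 12 populations, with an interval above 0 in 2. These were E11 EHT (3.57 and 2.48; 0.51) and type II pre-HSCs (2.69 and 1.58; 0.73). With cells of middle cycling content left out, *Cdk4* was higher in 7 and lower in 4 populations, and the E11 EHT interval held 0 (0.29, -0.31 to 0.93). By that division the *Ccnd2* interval in E10 HE also held 0 (-0.69, -1.79 to 0.14), and *Ccnd3* was higher in 5 and lower in 7. *Ccnd3* was higher in the upper cells in 8 of 12 populations and its interval held 0 in all of them, as did that of *Cdkn1b*, also higher in 8. With cells of middle cycling content left out, *Cdkn1b* was higher in the upper E10 EHT cells (15 transcripts in 69 cells against 3 in 62; log2 ratio 1.1, 0.35 to 4.6). *Cdkn1a* had intervals below 0 in 2 populations, E11 EHT (1 transcript against 10, with 9 of the 11 in the 2 cells with macrophage markers, and 1 against 1 with cells of middle content left out) and E11 YS cells (0 against 7, all in 1 cell), and *Rb1* in E11 EHT (0 against 7). The 8 genes were compared in 12 populations, cells of 1 population are not replicates, and all members of a cell share its 3000 or 5000 transcripts.

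**Figure D3:**
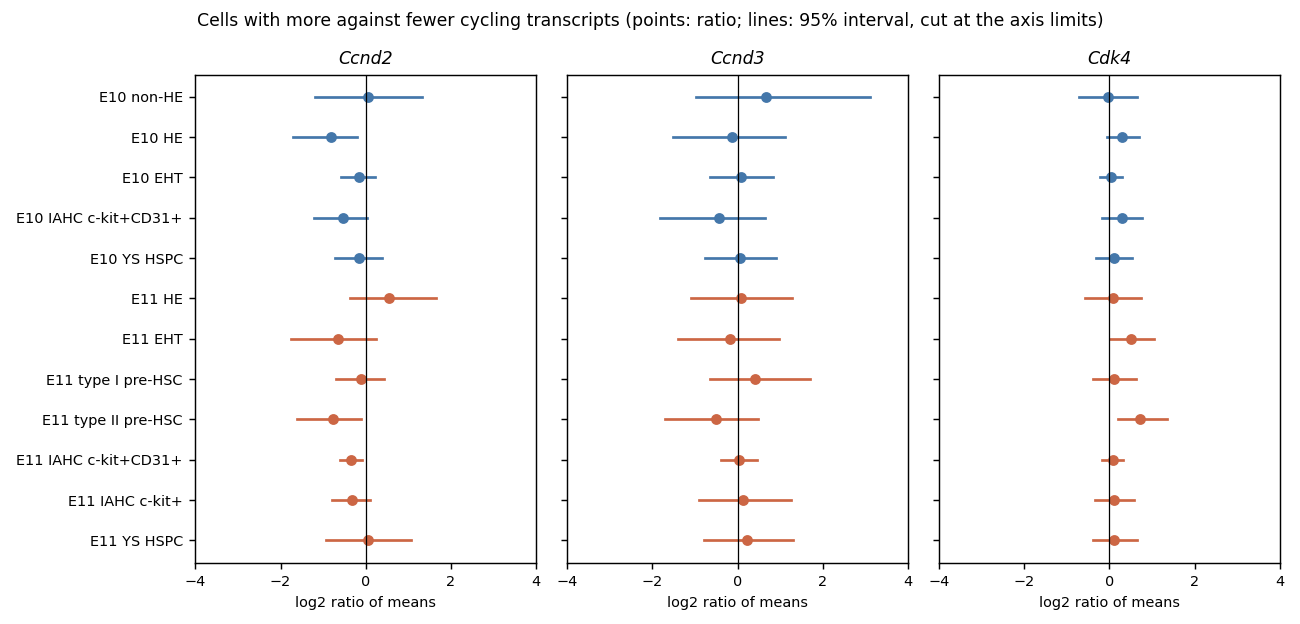
Log2 ratio of the mean transcripts per cell of *Ccnd2*, *Ccnd3* and *Cdk4*, in cells at or above against cells below the median of the cycling transcripts. Points are populations, and lines are the 95% intervals of the ratio, cut at the axis limits. *Ccnd2* is lower in the upper cells in 9 of 12 populations and *Cdk4* is higher in 11.

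Over the 13 populations at equal depth, the 3 genes whose log2 level followed that of *Ccnd2* most closely were *Actr3* (Pearson r 0.918), *Prkaca* (0.911) and *Ninj1* (0.906). For *Ccnd3* they were *Trim35* (0.784), *Atp6v0b* (0.669) and *Ubb* (0.664), and for *Cdk4* *Hnrnpc* (0.891), *Hadh* (0.861) and *Vasp* (0.853). Among the members, r was 0.400 between *Ccnd2* and *Cdk4*, -0.233 between *Ccnd2* and *Ccnd3* and -0.132 between *Ccnd3* and *Cdk4*. The members were fixed by name, while the genes above were picked for the highest r of 2409 genes. The values can therefore not be set against each other. All are descriptions over 13 points that share libraries.

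Whole IAHCs gave replicated measurements of the cells inside a cluster. Of 109 libraries, 57 with 5000 or more transcripts were used, 7 E10 dorsal, 21 E10 ventral, 12 E11 dorsal and 17 E11 ventral. Their totals ran from 5099 to 115328 with a median of 12838, and haemoglobin genes made up over 10% of the transcripts in 3. Clusters from the same embryo could not be recognised, so that p-values may be too small. E11 column names fell into 2 sets, with 6 and 6 dorsal and 4 and 13 ventral libraries. In bulk libraries fewer cells of a type and less RNA per cell cannot be told apart.

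*Ccnd2* was found in 56 of the 57 clusters, and again it led the D-type cyclins. Per 10000 transcripts its lowest, median and highest values were 2.21, 2.87 and 10.7 in E10 dorsal clusters. They were 1.07, 3.52 and 6.05 in E10 ventral, 2.72, 5.29 and 11 in E11 dorsal and 0, 3.24 and 9.84 in E11 ventral clusters. The groups overlapped. *Ccnd2* alone was the highest D-type cyclin in 5 of 7, 18 of 21, 11 of 12 and 14 of 17 clusters of these groups and tied with another in 1 E10 ventral and 1 E11 dorsal cluster, with pooled shares of 63.1, 62.7, 87.2 and 69.5%.

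In edgeR's quasi-likelihood test over the 260 genes that passed its filter, 81 genes (31.2%) were called between E11 and E10 ventral and 24 (9.23%) between E11 and E10 dorsal clusters. None (0%) was called between ventral and dorsal clusters of either stage or for the interaction of stage and side, with 20, 23 and 26 genes at an unadjusted p under 0.05 and 0 calls by DESeq2. *Ccnd2* was the 1 member of 8 that passed the filter, and it was called in no comparison. Its log2 fold change was 0.30 (SE 0.28) between E11 and E10 ventral clusters (edgeR adjusted p = 0.412) and 0.99 (SE 0.43) between E11 and E10 dorsal clusters (edgeR adjusted p = 0.141). Between ventral and dorsal clusters it was 0.03 (SE 0.36) at E10 (edgeR adjusted p = 0.992) and -0.65 (SE 0.34) at E11 (edgeR adjusted p = 0.588). The interaction was -0.68 (SE 0.51; edgeR adjusted p = 0.733). The ventral value had the opposite sign, -0.12, with the E11 column set as a term. With the first E11 column set alone, an alternative chosen after seeing the data, the E11 ventral to dorsal value was -1.63 (edgeR adjusted p = 0.159) and the interaction -1.66 (edgeR adjusted p = 0.416).

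**Figure D4:**
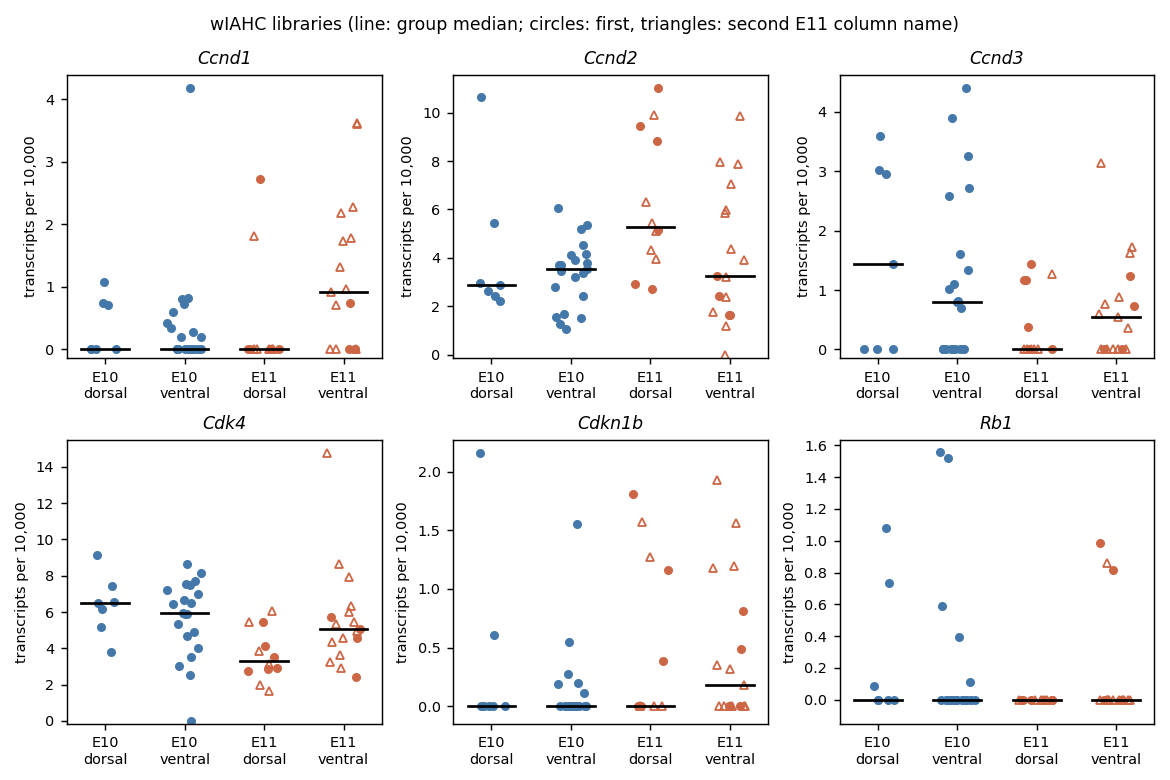
Transcripts per 10000 of the members in each whole IAHC library, in E10 dorsal (7), E10 ventral (21), E11 dorsal (12) and E11 ventral (17) clusters, with the median of each group as a line. *Ccnd2* and *Cdk4* are found in nearly all clusters and the groups overlap for each gene.

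The other members are given from a wider fit of the 9651 genes with a transcript in 7 or more libraries, a filter set after it was seen that 1 member had passed. There 355 genes (3.68%) were called between E11 and E10 ventral clusters, and of 6 members tested 1 was called, *Ccnd3*. It was lower at E11 by -1.20 (SE 0.37; edgeR adjusted p = 0.0402), where the median of all genes was -0.13, and without any filter its adjusted p was 0.0550. Its lowest, median and highest values were 0, 0.794 and 4.4 per 10000 in E10 ventral and 0, 0.549 and 3.14 in E11 ventral clusters. The ranges overlapped almost wholly and it was found in 12 of 21 and 10 of 17 clusters. Pooled over libraries it had 1.94 per 10000 in E10 ventral clusters, and 0.555 and 0.807 in the E11 ventral clusters of the first and second column set. In dorsal clusters the E11 to E10 value was -1.61 (SE 0.64; edgeR adjusted p = 0.194), where the median of all genes was -0.34, with medians of 1.43 at E10 and 0 at E11. In sorted c-kit+CD31+ IAHC cells at equal depth, *Ccnd3* had been 0.356 per cell at E10 and 0.547 at E11 (log2 ratio 0.50, -0.01 to 1.30).

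*Cdk4* was found in 56 of 57 clusters, with medians of 6.51 in E10 dorsal, 5.92 in E10 ventral, 3.32 in E11 dorsal and 5.05 in E11 ventral clusters. The E11 dorsal clusters, with a highest value of 6.08, lay lowest but overlapped each other group. The log2 fold change between E11 and E10 was -1.10 in dorsal clusters (SE 0.40; edgeR adjusted p = 0.142; 132 of 9651 genes, 1.4%, were called) and -0.23 in ventral clusters (SE 0.25; edgeR adjusted p = 0.722). The dorsal value was -0.42 in a fit that differed both in depth (10000 or more transcripts) and in the genes tested (filterByExpr). The median of all genes in the wider fit was -0.34 between dorsal stages. *Ccnd1* was found in 3 of 7, 10 of 21, 2 of 12 and 11 of 17 clusters, and its E11 to E10 value was 1.119 in ventral clusters (SE 0.43; edgeR adjusted p = 0.124). Within E11 ventral clusters it was found in 1 of 4 of the first column set and in 10 of 13 of the second.

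*Cdkn1b* was found in 2 of 7, 6 of 21, 5 of 12 and 9 of 17 clusters, with a ventral E11 to E10 value of 1.07 (SE 0.52; edgeR adjusted p = 0.288). *Rb1* was found in 3, 5, 0 and 3 clusters, *Cdk6* in 2, 2, 0 and 2, and *Cdkn1a* in 1, 1, 0 and 0. With 0 transcripts of these 3 genes in the 12 E11 dorsal clusters, no fold is given for that group.

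Of the pathway lists, 1 other Cdk inhibitor (*Cdkn1c*), 1 upstream input and 1 mitosis gene were among the 260 genes tested. *Cdkn1c* alone was called, higher in E11 than in E10 ventral clusters by 1.19 (SE 0.33, edgeR adjusted p = 0.00405). In that comparison 31.2% of all genes were called. In the wider fit *Cdkn1c* was again called (0.96, edgeR adjusted p = 0.0290), as 1 of 3 other Cdk inhibitors tested. *Tfdp1*, a partner of E2F and 1 of 11 genes tested of the Rb family and E2f, was lower by -2.02 (edgeR adjusted p = 0.0493). No gene of the other lists was called between ventral stages, and 3.68% of all genes were. In dorsal clusters the mitotic kinase gene *Aurka*, 1 of 15 mitosis genes tested, was called lower at E11 by -2.76 (edgeR adjusted p = 0.0414). No gene of the other lists was called between dorsal stages, and 132 of all 9651 genes were. The 16 E2F targets were tested in the wider fit alone, and none was called there in the 5 comparisons.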

How the data were processed

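Per the labels and the study's methods, CEL-Seq reads were mapped by the authors with BWA (0.6.2-r126, mm10, in the submitters' processing notes) and UMIs were counted. The deposited single-cell values are estimated counts of transcripts, which the authors down-sampled to 3000 (E10) or 5000 (E11) per cell and raised by 0.1; 0.1 was subtracted here, which gave whole numbers. The deposited wIAHC values are estimated counts corrected for UMI collisions; 90 spike-in entries were left out, values were rounded, and libraries under 5000 transcripts were left out (52 of 109). Sides and E11 sets of wIAHCs, and sorted sets of cells, were read from column names. No doublets were called, since single cells had been sorted into wells.

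wIAHCs were compared with edgeR 4.0.16 (TMM, filterByExpr, quasi-likelihood, 4 groups, Benjamini-Hochberg over all genes tested, adjusted p under 0.05), tested first on simulated data. There filterByExpr recovered 7 of 7 tested 2-fold changes, and 5 of its 51 calls were unchanged genes. The 7-library filter recovered 12 of 48 2-fold and 34 of 49 4-fold changes, and 12 of its 135 calls were unchanged genes. Genes not called in the wider fit may thus still differ by 2-fold. DESeq2 1.42.0, R 4.3.3, Python 3.11.15, scipy 1.17.1 and matplotlib 3.10.9 were also used. Single-cell ratios used a pseudocount of 0.1, a minimum of 0.2 per cell and 2-fold; intervals are exact Poisson, conditional binomial or Clopper-Pearson. Sequences and gene positions are from the GRCm38 genome and its GENCODE annotation.

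The rule for named genes covered all 8 members in each comparison and, of the pathway lists, up to 6 genes a comparison by size of difference; levels are given for all 8 members, ratios mainly for those at the minimum level. The members and lists were chosen with earlier results of these data known. Alternatives were another pseudocount, minimum, split, depth, weighting and filter, DESeq2, leaving out sets, cells with macrophage markers or haemoglobin-rich libraries. The list of cell barcodes was not used.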

Additional observations from a re-analysis of the deposited data

Results flagged for a closer look

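Among the 7 E10 dorsal wIAHCs, 1 cluster lay far above the others for each of 4 genes. *Ccnd2* reached 10.7 per 10000 in a library of 6656 transcripts, where the next value was 5.44, and it rested on 7.10 estimated transcripts. *Cdk6* reached 0.732 (next 0.0869), *Cdkn1a* 0.0869 (next 0) and *Cdkn1b* 2.17 (next 0.606), on 1.00, 1.00 and 2.01 transcripts. These were 4 different clusters, the other groups held more than 10 clusters and were not examined in this way, and chance sets apart about 1 in 20 groups. For *Cdk6*, *Cdkn1a* and *Cdkn1b*, where most of the clusters were at 0, a cluster with 1 or 2 transcripts stands apart whatever the rate.

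The 52 wIAHC libraries under 5000 transcripts, which no comparison used, also held members in their 100355 transcripts. *Ccnd2* had 49.3 transcripts in 26 of them (4.91 per 10000), *Cdk4* 27.1 in 18, *Ccnd1* 12.04, *Ccnd3* 3.01 and *Cdkn1b* 3.01.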

How the results depend on the processing

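Values of single genes under an alternative were counted together with the shares of all genes past 2-fold. Of these, 997 stayed within their interval, error or another set limit and 28 moved beyond it, some with a change of sign. The remaining 2, which had been past 2-fold, reversed. *Cdkn1a* reversed to -0.18 (E11 EHT against HE) and to 0.0288 (type I pre-HSC against EHT) without the 2 E11 EHT cells with 4 or more macrophage markers. Leaving out the second set of E10 HE cells, the set that held 22 of 23 *Ccnd3* transcripts, moved *Ccnd3* to -1.58 against non-HE, 1.79 for EHT against HE and 1.75 for E11 against E10 HE. Leaving out the second set of E11 non-HE cells moved *Ccnd2* to -2.77 against E10. The first set held 2 *Ccnd2* transcripts in 11 cells before thinning, so that value is set by the pseudocount and gives no exact fold. Leaving out the second set of type II pre-HSCs turned *Ccnd3* against type I from 0.30 to -0.63. Leaving out the second E10 HE set turned *Cdk4* of E10 EHT against HE from 0.12 to -0.12. Leaving out 1 set ended the 2-fold difference of *Ccnd1* between E10 EHT and HE (0.79 without EHT set 3, 0.82 without HE set 2), of *Ccnd3* between the IAHC sorts (-0.84 to -0.95 without c-kit+ set 1 or 3 or c-kit+CD31+ set 1) and of *Cdk4* between HE stages (-0.89 without the first E10 set). At the E10 depth the *Cdkn1a* values were 0.68 and -0.80. With a pseudocount of 0.5 the *Ccnd1* value of E11 against E10 EHT was -0.53. With cells of middle cycling content left out, *Ccnd2* was lower in the upper cells in 10 of 12 populations with an interval below 0 in 4, and *Cdk4* was higher in 7.

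Counts of genes called in wIAHCs differed with the genes tested, the libraries used and the terms of the fit. Without a low-count filter 310 (ventral), 107 (dorsal), 8 (E10 sides), 12 (E11 sides) and 21 (interaction) genes were called, and with the 7-library filter, chosen after seeing the data, 355, 132, 13, 16 and 38. At least 10000 transcripts per library gave 132 ventral and 3 dorsal calls, the E11 column set as a term 39 ventral calls, and E11 libraries of the first column set alone, also chosen after seeing the data, 44 ventral calls and 1 between E11 sides. The other 30 counts of calls under an alternative stayed within 1.5 times, and the 33 *Ccnd2* shares of D-type cyclin transcripts stayed within their intervals. The cause was not tested. *Ccnd2* was called in none of them, with log2 values from -0.62 to 0.32 in ventral and 0.40 to 1.07 in dorsal clusters, and did not pass the filter with whole UMIs, without haemoglobin-rich libraries or with the second set alone. No paired analysis was possible between labelled groups because each had 1 sample number. The 3 sets of the pre-HSC sample, with both types in each, were set side by side and not tested. At 3000 to 5000 transcripts per cell, *Cdk6*, *Cdkn1a* and *Rb1* rest on 33 to 75 transcripts in all, which limits every statement on them.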
